A study of Mus musculus with 24 samples.

Results

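The genes described here are 7 genes of the lymphatic endothelium, Prox1, Lyve1, Pdpn, Mmrn1, Reln, Ccl21a and Gm13304, measured by RNA sequencing in 24 mouse prostate tumors. They were found as the rows of the deposited counts whose Ensembl identifiers carry these symbols in GENCODE M21, which gave 7 of 55401 genes. They were selected on their measured levels across these groups, above all on the difference between cabozantinib-treated and control tumors. Their values are therefore a description. They went through the same edgeR fits as all genes, and in the main fits counts of them past a threshold are given beside the share over all genes. No p-value of theirs is read as evidence. All tumors grew from TC2Ras, a mouse prostate adenocarcinoma line that expresses activated Ras, in male C57/BL6 mice of 8 to 10 weeks of age. Subcutaneous (SC) tumors were taken 1 week after implantation from mice given an empty control plasmid (n = 2) or an IL-27 plasmid (n = 2). Tumors of the luciferase-expressing line TC2Ras-Luc grew inside the tibia and were taken at day 14 (D14, n = 3 per group) or at the end of the study (EOS, n = 2 per group). The intratibial groups were control (empty plasmid and the vehicle PVP), IL-27 (IL-27 plasmid and PVP), cabo (empty plasmid and cabozantinib) and IL-27+cabo (IL-27 plasmid and cabozantinib). Plasmids were delivered to a leg muscle with ultrasound, and cabozantinib or PVP was given by mouth every day for the 2 weeks after implantation, so the EOS tumors were collected once dosing was over. The EOS tumors came from animals that had reached a humane endpoint, and the tumors of all groups grew from a transplanted line rather than in the prostate. The day of each EOS harvest is not given, and the authors report longer survival with cabo and IL-27+cabo than in control mice. EOS comparisons therefore cannot tell treatment apart from time since implantation or since the last dose.

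Lymphatic vessels drain fluid and immune cells from tissue. Their endothelial cells are set apart from those of blood vessels by the transcription factor PROX1, and they depend on the growth factors VEGF-C and VEGF-D acting through the receptor VEGFR-3, the product of Flt4. LYVE1 and podoplanin (Pdpn) are surface glycoproteins, multimerin 1 (Mmrn1) and reelin (Reln) are secreted, and CCL21 is a chemokine that draws dendritic cells and T cells carrying CCR7 into the vessel. Cabozantinib is an inhibitor of several receptor tyrosine kinases, among them MET and the VEGF receptors, and IL-27 is an immune cytokine. Other cells use some of these genes too: some macrophages carry Lyve1, megakaryocytes make Mmrn1, and many fibroblasts and bone cells carry Pdpn.

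Ccl21a and Gm13304 are shown first by sequence, because reads cannot be assigned to either of them with certainty. Both lie on chromosome 4 of GRCm38, Ccl21a (ENSMUSG00000094686) from 42772860 to 42773993 on the minus strand and Gm13304 (ENSMUSG00000073878) from 42114817 to 42115917 on the plus strand. In the GENCODE M21 transcripts, the coding sequence of each has 402 bases, and these differ only by T84A and C194T, with Ccl21a as the reference and positions counted from 1 at the A of the start codon. The gene models Gm21541, Ccl21b and Gm10591, on the same chromosome, differ from Ccl21a by the same 2 substitutions, so that each of the 4 copies is 99.5% identical to Ccl21a over the coding bases. The stretches around the substitutions are printed below, the substituted base in capitals.
Ccl21a, bases 69 to 99: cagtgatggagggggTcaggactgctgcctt
Gm13304, bases 69 to 99: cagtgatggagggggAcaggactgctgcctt
Ccl21a, bases 179 to 209: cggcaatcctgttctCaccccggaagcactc
Gm13304, bases 179 to 209: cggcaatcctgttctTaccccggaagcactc
Reads that cover neither of these bases fit all 5 gene models over the coding part, and how such reads were counted is not given in the sources used here.

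RefSeq sequence of the 250 bases before the gene start was at hand for 6 of the 7 genes (GRCm38.p6). The letters ATTGT on either strand, the core that SOX factors such as the lymphatic regulator SOX18 recognize, were searched because PROX1 is known to act downstream of SOX18. They were found 3 times before Mmrn1 and 1 time before Pdpn, without overlap, and were not among the letters of the windows of Prox1 (2 starts), Reln, Ccl21a and Gm13304. Of all 32851 such windows, 27.7% hold them. The window of Mmrn1, the gene with the widest range among the intratibial tumors after the chemokines, is on the plus strand and lies inside the longer GENCODE gene, with the matches in capitals.
Mmrn1, chr6:60944067-60944316: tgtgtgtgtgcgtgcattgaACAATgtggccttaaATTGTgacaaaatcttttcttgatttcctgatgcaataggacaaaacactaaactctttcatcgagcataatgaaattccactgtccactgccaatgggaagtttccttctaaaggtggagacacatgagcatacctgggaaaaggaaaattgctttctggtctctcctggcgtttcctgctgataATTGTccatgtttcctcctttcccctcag
The windows of Ccl21a and Gm13304 differ at 3 of the 290 bases that were compared around their starts.

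Each library held between 63729005 and 83782258 counts on genes. Levels are given as CPM, the counts scaled to library size with the TMM normalization of edgeR, and fold changes, with their standard errors (SE), are those of edgeR's quasi-likelihood model on the counts. In whole tumors, fewer lymphatic cells and less RNA per lymphatic cell cannot be told apart. All 6 epithelial and tumor markers (among them Epcam, Krt8 and Hras) had counts in every group, whereas of the 8 bone markers Bglap, Mepe and Sost had no counts in any D14 control, IL-27 or cabo tumor. Compared per transcript length, Pdpn had by far the highest level of the 7 genes in the D14 control tumors, at 119 ± 25.6 RPKM, the read count scaled to library size and exon length (SD, n = 3). Ccl21a followed at 19.8 ± 2.74 RPKM, then Gm13304 at 3.41 ± 0.778 and Lyve1 at 3.29 ± 1.35. Mmrn1 stood at 1.60 ± 0.474, Prox1 at 0.401 ± 0.149 and Reln at 0.119 ± 0.0337 RPKM. Apart from Pdpn and Ccl21a, the lymphatic label is thus carried by genes of low abundance. The level of Pdpn moved apart from the others in what follows.

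**Figure D1:**
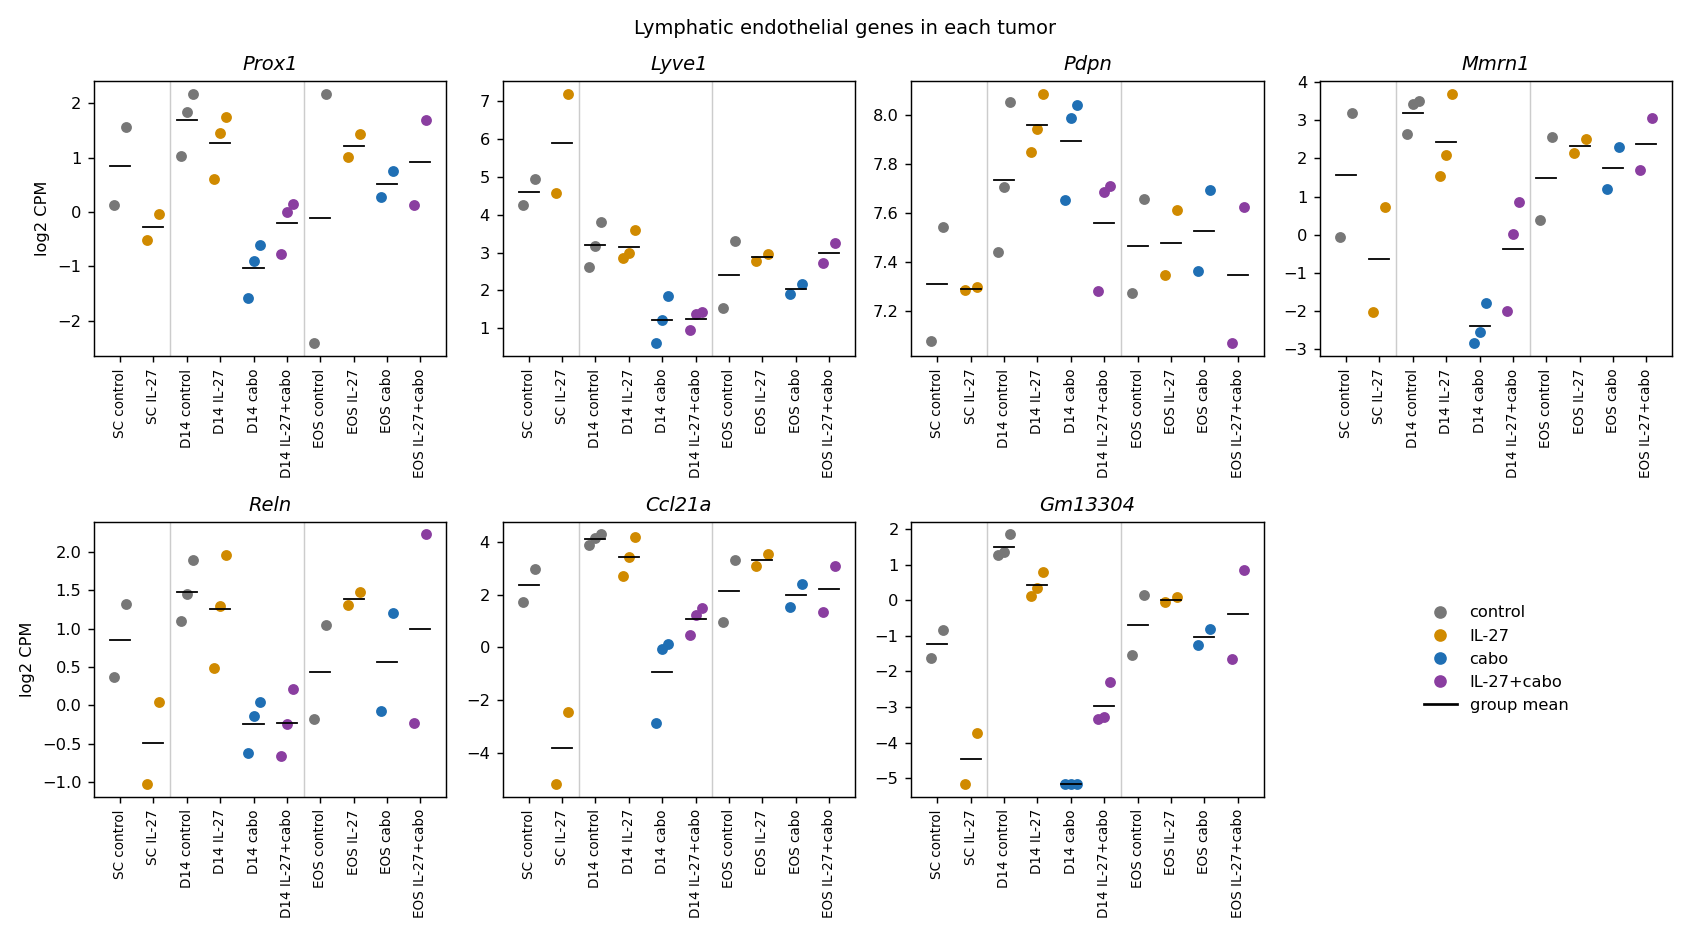
The plot of levels by tumor gives log2 CPM (with a prior count of 2; vertical axes differ between genes) for each of the 7 genes in the 10 groups, with a point per tumor and a line at the group mean. The D14 cabo points lie below all D14 control points for every gene except Pdpn, and mouse 9 of the EOS control group lies far below mouse 13 for Prox1.

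Prox1 (ENSMUSG00000010175, chromosome 1 from 190118035 to 190170714, minus strand) encodes the transcription factor that sets and keeps lymphatic identity. At day 14 it was at 2.03, 4.50 and 3.56 CPM in control mice 3, 5 and 7, and at 2.73, 3.33 and 1.49 CPM in IL-27 mice 4, 6 and 8. In cabo mice 21, 25 and 27 it was at 0.628, 0.306 and 0.508 CPM, from 44, 22 and 35 counts. The IL-27+cabo mice 20, 22 and 24 had 0.559, 1.08 and 0.971 CPM. All 6 tumors with cabozantinib were below all 6 without it. The log2 fold change against control was -2.80 (SE 0.41) with cabo and -1.92 (SE 0.45) with IL-27+cabo. At EOS, Prox1 was at 4.51 and 0.159 CPM in control mice 13 and 9, at 1.98 and 2.67 in IL-27 mice 10 and 12, at 1.66 and 1.19 in cabo mice 19 and 23, and at 3.21 and 1.07 in IL-27+cabo mice 16 and 28. The control pair spanned the values of every other EOS group, mouse 9 holding only 11 counts. From day 14 to EOS the log2 fold change was 1.57 (SE 0.41) in the cabo group, whose EOS and D14 tumors did not overlap.

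Lyve1 (ENSMUSG00000030787, chromosome 7 from 110850607 to 110863239, minus strand) encodes a hyaluronan receptor of the lymphatic surface. Its D14 control levels were 6.07, 8.92 and 13.9 CPM and its D14 IL-27 levels 7.96, 12.1 and 7.15 CPM. With cabo it was at 2.28, 1.49 and 3.59 CPM, and with IL-27+cabo at 1.92, 2.59 and 2.65 CPM. Neither group with cabozantinib overlapped the control group, and the log2 fold changes against it were close to each other, -1.97 (SE 0.40) with cabo and -1.98 (SE 0.39) with IL-27+cabo. At EOS, Lyve1 was at 9.86 and 2.85 CPM in control mice 13 and 9, 6.88 and 7.75 with IL-27, 4.47 and 3.74 with cabo, and 6.54 and 9.45 with IL-27+cabo. The EOS tumors of the cabo and IL-27+cabo groups were all above their D14 counterparts, by a log2 fold change of 0.75 (SE 0.37) and 1.72 (SE 0.39). The SC tumors held more Lyve1 than any intratibial tumor, 19.1 and 30.5 CPM with the control plasmid and 23.7 and 147 CPM with IL-27.

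Pdpn (ENSMUSG00000028583, chromosome 4 from 143267431 to 143299564, minus strand) encodes podoplanin, the ligand of the platelet receptor CLEC1B. It was at 174, 209 and 266 CPM in the D14 control tumors, 246, 272 and 230 with IL-27, 263, 201 and 254 with cabo and 155, 209 and 206 with IL-27+cabo. The cabo tumors lay within the range of the control tumors, and the log2 fold change was 0.15 (SE 0.17). Over all 24 tumors, Pdpn ranged from 134 CPM (EOS IL-27+cabo mouse 28) to 272 CPM (D14 IL-27 mouse 6). In the order of its group means, each of the 9 neighbouring pairs of groups overlapped.

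Mmrn1 (ENSMUSG00000054641, chromosome 6 from 60924976 to 60989378, plus strand) encodes multimerin 1, a large secreted protein that lymphatic vessels share with platelets and megakaryocytes. In the D14 control tumors it was at 6.22, 11.4 and 10.6 CPM, and in the IL-27 tumors at 4.21, 12.97 and 2.87 CPM. In the cabo tumors it was at 0.143, 0.111 and 0.261 CPM, from 10, 8 and 18 counts. The IL-27+cabo tumors were more spread, with 0.224, 1.79 and 0.985 CPM, and mouse 20 of that group was in the range of the cabo tumors. Against control the log2 fold change was -5.76 (SE 0.40) with cabo and -3.21 (SE 0.71) with IL-27+cabo. At EOS the levels were 5.84 and 1.29 CPM in control mice 13 and 9, 4.401 and 5.66 with IL-27, 4.91 and 2.26 with cabo, and 8.25 and 3.20 with IL-27+cabo. Both EOS cabo tumors were thus above all D14 cabo tumors and below all D14 control tumors, and the log2 fold change from day 14 was 4.38 (SE 0.50).

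Reln (ENSMUSG00000042453, chromosome 5 from 21884454 to 22344702, minus strand) encodes reelin, a secreted matrix protein best known from the brain and also made by lymphatic endothelium. It was at 2.11, 3.69 and 2.69 CPM in the D14 control tumors and at 2.43, 3.85 and 1.38 with IL-27. The cabo tumors had 0.885, 1.00 and 0.624 CPM and the IL-27+cabo tumors 0.820, 1.13 and 0.605 CPM. All of these were below the control tumors, with log2 fold changes of -1.75 (SE 0.32) and -1.70 (SE 0.42). At EOS, Reln was at 2.04 and 0.854 CPM in control mice 13 and 9, 2.45 and 2.74 with IL-27, 2.27 and 0.927 with cabo and 4.65 and 0.827 with IL-27+cabo. In each of the 2 cabozantinib groups, 1 of the EOS tumors fell within the D14 range, so the groups overlapped. Neighbours in the order of the 10 group means overlapped in all 9 pairs for Reln, as they did for Mmrn1.

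Ccl21a was at 14.7, 19.4 and 17.7 CPM in the D14 control tumors and at 6.43, 18.04 and 10.8 CPM with IL-27. It was at 0.942, 0.111 and 1.06 CPM in cabo mice 21, 25 and 27, where mouse 25 held 8 counts. With IL-27+cabo it was at 2.81, 2.31 and 1.36 CPM, above all cabo tumors and below all control tumors. The log2 fold changes against control were -4.61 (SE 0.62) and -2.96 (SE 0.37). At EOS, Ccl21a was at 9.75 and 1.91 CPM in control mice 13 and 9, 8.42 and 11.6 with IL-27, 5.29 and 2.88 with cabo, and 8.54 and 2.51 with IL-27+cabo. From day 14 to EOS the cabo group differed by a log2 fold change of 2.54 (SE 0.76) without overlap, and both EOS cabo tumors stayed below the D14 control range.

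Gm13304 followed the same order over the D14 groups at a lower level. It was at 2.41, 2.54 and 3.60 CPM in the D14 control tumors, 1.07, 1.70 and 1.25 with IL-27, and 0.0745, 0.175 and 0.0704 with IL-27+cabo. No count fell on it in any of the 3 cabo tumors, which, with a floor of 3 counts over the group, makes it at least 200.3-fold lower than in the control tumors. Gm13304 was also the only gene of the 7 whose D14 IL-27 tumors lay wholly below the control tumors, by a log2 fold change of -1.07 (SE 0.33). At EOS it was at 1.08 and 0.318 CPM in control mice 13 and 9, 0.940 and 1.03 with IL-27, 0.550 and 0.391 with cabo and 1.79 and 0.293 with IL-27+cabo.

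The counts of Ccl21a and its 4 copies were also summed, since the sum does not depend on which of the 5 gene models a counted read was given to. The sum was at 25.9 ± 3.88 CPM in the D14 control tumors, 17.0 ± 7.93 with IL-27, 0.743 ± 0.547 with cabo and 2.502 ± 0.763 with IL-27+cabo (SD, n = 3 each). It had the same order as Ccl21a alone at day 14. At EOS the sum was at 8.34 ± 7.78 CPM in the control group, 13.7 ± 3.20 with IL-27, 5.93 ± 2.34 with cabo and 8.88 ± 7.60 with IL-27+cabo (SD, n = 2 each). The copies took between 31.6% and 36.1% of these counts in the D14 control tumors and between 28.7% and 37.1% with IL-27. With cabo they took between 0% and 9.59% of 73, 8 and 74 counts, and with IL-27+cabo between 7.93% and 18.2%. The share at EOS, over all 4 groups, was between 26.7% and 40.1%. The counts given to the copies were therefore lower relative to Ccl21a in every D14 tumor with cabozantinib than in any other intratibial tumor, and how the counting treats shared reads at such depths was not tested. Which mouse build the reads were mapped to is unclear, and the split over the copies can depend on it.

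**Figure D2:**
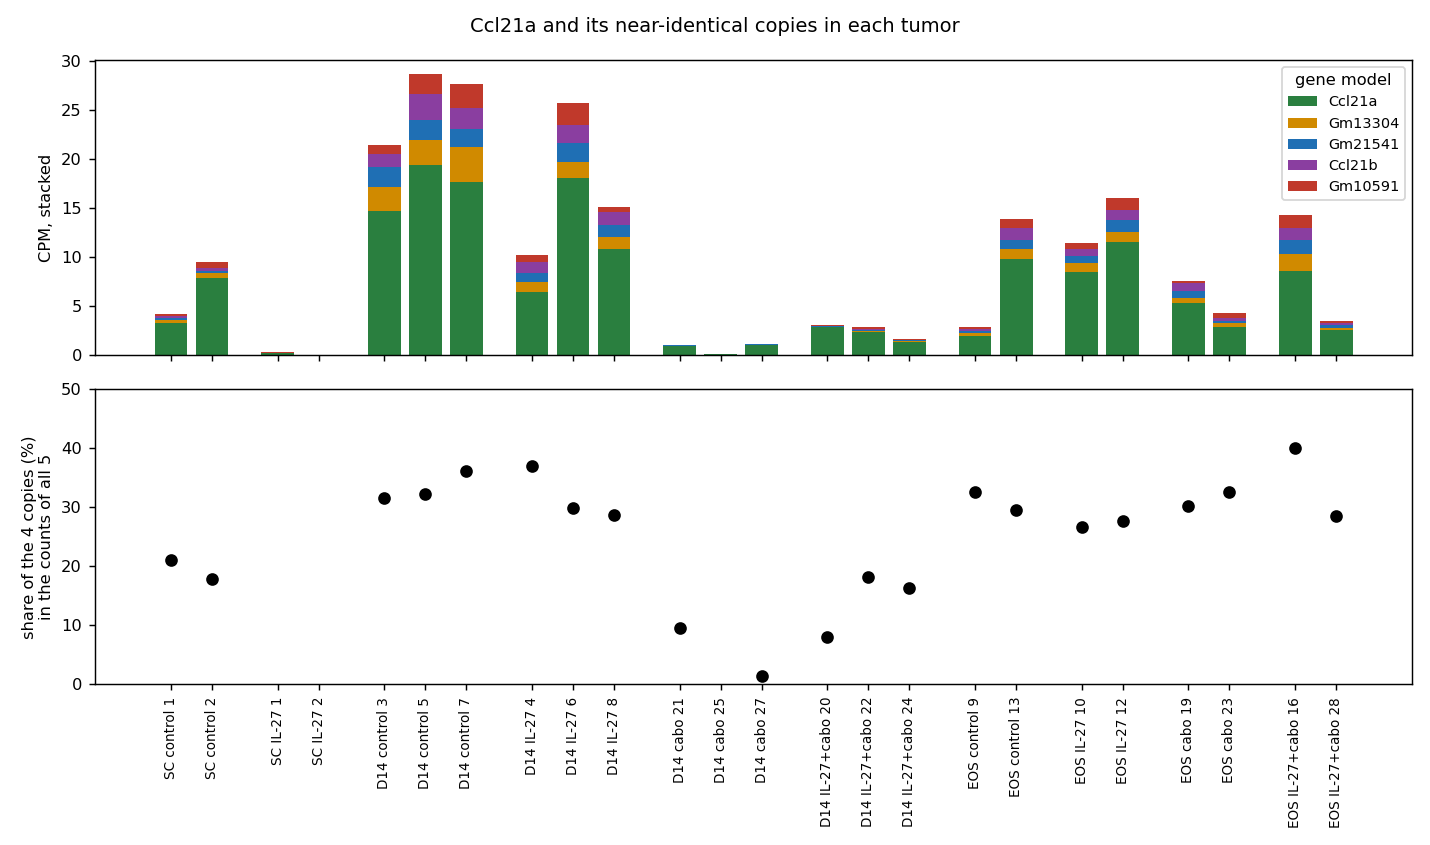
The stacked plot of Ccl21a and its copies gives, for each tumor, the CPM of the 5 gene models (upper panel) and the share of the 4 copies in their counts in percent (lower panel, without the 3 tumors that have only 23, 2 and 8 counts in all). Bars are lowest in the SC IL-27 and D14 cabo tumors, and of the shares shown, those between 17.9% and 40.1% belong to SC control tumors and to intratibial tumors that were not being dosed with cabozantinib, except that IL-27+cabo mouse 22 reaches 18.2%.

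Taking the 7 genes together, 6 had D14 cabo tumors that lay wholly below the D14 control tumors, where 13.7% of the 18627 genes tested did. Ccl21a and Gm13304 are near-identical copies whose reads cannot be assigned with certainty. In this and later tallies they are therefore not 2 separate observations. Of the 7, 5 (Prox1, Mmrn1, Reln, Ccl21a and Gm13304) were among the lower genes with an edgeR adjusted p under 0.05, which held for 0.693% of genes tested. The median log2 fold change was -2.80 for the 7 genes and -0.01 for all genes tested. Nothing is read from these shares, since the genes were chosen with this contrast known. The count of 5 became 2 without cabo mouse 21, cabo mouse 27 or control mouse 7, 3 without cabo mouse 25, and 0 with the level of skeletal muscle markers as a covariate. With that covariate the log2 fold changes of Prox1 (-4.33), Mmrn1 (-6.88), Reln (-2.82) and Ccl21a (-5.25) were larger in size, while the SE of each of the 7 genes was larger. The muscle score (mean log2 CPM of the markers) was -0.12 ± 1.54 in the D14 control tumors and 4.18 ± 0.071 with cabo (SD, n = 3 each). Score and treatment thus went together, so that fit cannot tell them apart. With IL-27+cabo, the same 6 genes lay wholly below control (background 8.57%), but 0 of 7 had an adjusted p under 0.05 by edgeR (background 0.0427%), against 6 at an unadjusted p under 0.05 (background 6.2%) and 6 by DESeq2 (background 2.58% in either direction). Leaving out mouse 20, whose Mmrn1 was the lowest of the group, gave 3 by edgeR. That library stands apart: it was the smallest of all (63729005 counts, TMM factor 0.842), and its epithelial markers summed to 390 CPM against 95.3 and 104 in mice 22 and 24, its megakaryocyte markers to 258 against 33.5 and 51.8, and its fibroblast markers to 5828 against 11210 and 9412. The median log2 fold change of the 7 genes was -1.98 there, and 0.05 over all genes tested. With IL-27 alone, 1 of 7 genes (Gm13304) lay wholly below control (background 4.94%) and 0 had an adjusted p under 0.05 (background 0%), with 1 at an unadjusted p under 0.05 (background 2.76%) and 0 by DESeq2 (background 0.0108%). The IL-27, cabo and IL-27+cabo comparisons share the same 3 control tumors.

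**Figure D3:**
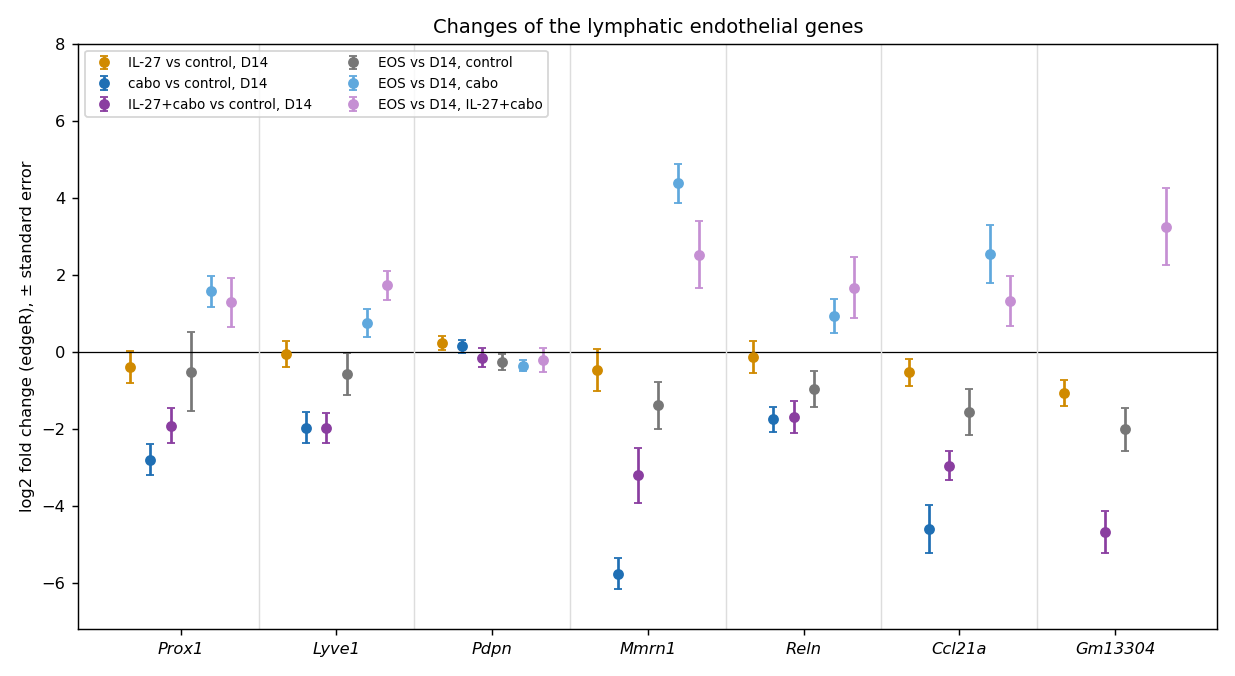
The plot of changes gives the log2 fold change of each gene with its standard error in 6 comparisons, leaving out Gm13304 where the D14 cabo group had no counts. The D14 IL-27+cabo points lie below 0 for all 7 genes and the D14 cabo points for all shown but Pdpn, and the EOS against D14 points of the same groups lie above 0 apart from Pdpn, although that of Reln with IL-27+cabo was -0.06 without EOS mouse 16.

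From day 14 to EOS, 5 of the 7 genes (Prox1, Lyve1, Mmrn1, Ccl21a and Gm13304) were wholly higher in the cabo group (background 17.9%), and 1 of them, Mmrn1, was among the genes with an adjusted p under 0.05 (background 0.945%; 0 without D14 cabo mouse 21). The median log2 fold change of all 7 genes was 1.57, against 0.01 over all genes tested. In the IL-27+cabo group, 3 of 7 (Lyve1, Mmrn1 and Gm13304) were wholly higher (background 11.3%) and 0 had an adjusted p under 0.05 by edgeR (background 0%), with 3 at an unadjusted p under 0.05 (background 3.83%) and 1 by DESeq2 (background 1.7%). The values of that group leaned on EOS mouse 16: without it the log2 fold change of Reln went from 1.67 to -0.06, of Prox1 from 1.29 to 0.28, of Ccl21a from 1.33 to 0.18 and of Gm13304 from 3.25 to 1.42. The epithelial markers of mouse 16 summed to 296 CPM, against 57.2 in mouse 28. Marker sums of other cell types differed as well. From day 14 to EOS in the cabo group, the muscle markers went from between 838 and 1358 CPM to 630 and 87.3 CPM (0 of 9 tested fell by edgeR, background 1.14%) and the fibroblast markers from between 10080 and 10927 to 6998 and 6303 CPM (2 of 8 fell). The macrophage markers went from between 441 and 544 to 337 and 329.5 CPM (1 of 8 fell), and the megakaryocyte markers from between 39.4 and 45.4 to 19.3 and 21.3 CPM (1 of 4 tested fell). In the IL-27+cabo group the muscle markers went from between 1131 and 3437 to 161 and 70.6 CPM (0 of 9 tested fell, background 0%). The 12 blood endothelial markers of that group went from between 169 and 195 CPM to 351 and 494 CPM, with 12 of 12 higher, 10 wholly (background 11.3%), a median log2 fold change of 1.33 and 0 with an adjusted p under 0.05 by edgeR. The part of these cell types in the values of the 7 genes was not tested. The control tumors went the other way: 4 of 7 (Mmrn1, Reln, Ccl21a and Gm13304) were wholly lower at EOS than at day 14 (background 18%), 0 with an adjusted p under 0.05 by edgeR (background 0.104%), 2 at an unadjusted p under 0.05 (background 13.1%) and 1 by DESeq2 (background 4.52%). That comparison leaned on EOS control mouse 9, in which every gene of the 7 except Pdpn was lower than in mouse 13. Without mouse 9 the EOS against D14 log2 fold change of Prox1 was 0.43, and without mouse 13 it was -4.38. The lymph node markers of the control group went from between 6.06 and 10.2 to 4.72 and 3.44 CPM. Of 7 tested, 5 were lower, 4 wholly (background 18%), and 2 higher. The muscle markers went from between 4.89 and 101 to 5.07 and 9.81 CPM, with 7 of 8 tested lower and 1 higher. By edgeR 0 passed in either list, and their part was not tested. In the IL-27 group, 2 of 7 (Pdpn and Gm13304) were wholly lower at EOS (background 11.7%), with 0 at an adjusted p under 0.05 (background 0%), 1 at an unadjusted p under 0.05 (background 5.05%) and 0 by DESeq2 (background 0.571%). Between treatments at EOS, Reln alone was wholly higher than control with IL-27 (background 17%), and no gene of the 7 was wholly apart from control with cabo (background 21.1% lower, 21.9% higher) or IL-27+cabo (background 22% lower, 20.2% higher). For these EOS comparisons edgeR and DESeq2 made 0 calls among the 7 genes, with 0 at an unadjusted p under 0.05 (background 3.25%, 8.9% and 14.2% for IL-27, cabo and IL-27+cabo). The change with cabo differed between EOS and day 14 in the same direction for 6 of the 7 genes, with differences of log2 fold changes of 5.75 for Mmrn1 (SE 1.21), 4.08 for Ccl21a (SE 1.10) and 2.07 for Prox1 (SE 1.17). These values rested on the EOS control pair, being 5.95 for Prox1 without mouse 13 and 1.14 without mouse 9, 7.24 and 5.06 for Mmrn1, and 5.71 and 3.36 for Ccl21a. Of the 7, only Gm13304 had an adjusted p under 0.05 there by edgeR (background 0.0788%), with 3 at an unadjusted p under 0.05 (background 4.11%), a call lost without D14 cabo mouse 21, EOS cabo mouse 19 or EOS control mouse 9.

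In the SC tumors the 7 genes did not move as a block with IL-27. Ccl21a had 265 and 587 counts (3.28 and 7.81 CPM) with the control plasmid and 13 and 0 counts with IL-27, and Gm13304 had 24 and 40 counts against 4 and 0. Prox1 was at 1.07 and 2.94 CPM against 0.952 and 0.670 with IL-27, Reln at 1.26 and 2.48 against 1.00 and 0.464, and these groups did not overlap either. Mmrn1 was at 0.929 and 9.15 CPM against 1.63 and 0.219, and Pdpn at 186 and 135 against 156 and 157, both with overlap. Lyve1, by contrast, was at 147 CPM in the second IL-27 tumor, which gave a log2 fold change of 1.76 (SE 0.75) with overlapping groups and was -0.01 without that tumor. The sum of the 8 macrophage markers was also highest in that tumor, at 1467 CPM against 895 in the other IL-27 tumor and 722 and 828 in the control tumors. The markers were split, however: 3 of the 8 lay wholly below the control tumors, near the share of all genes (35.3%). Another 2 lay wholly above, for which the share over all genes is not given here. The median log2 fold change of the markers was 0.93, with 5 above 0. By edgeR, 1 of the 8 macrophage markers fell (background 16.5%) and 0 rose (background 3.52%). Their part in the Lyve1 value was not tested. Other markers differed between the SC groups as well. The 6 epithelial and tumor markers summed to 45.1 and 120 CPM with the control plasmid and 6.63 and 13.4 with IL-27 (3 of 6 fell by edgeR, background 16.5%). The 10 muscle markers summed to 2.29 and 10.99 CPM against 276 and 747 (7 of 9 tested rose, background 3.52%), and the 10 lymph node markers to 5.28 and 11.1 against 31.2 and 95.7 (2 of 6 tested rose, background 3.52%). The 8 megakaryocyte markers, whose cells make Mmrn1, summed to 53.1 and 34.8 CPM against 10.5 and 16.5 (2 of 4 tested fell, background 16.5%). The 12 blood endothelial markers summed to 416 and 439 CPM against 308 and 744. By edgeR, 2 fell, near the share of all genes (16.5%), and 0 rose (background 3.52%). There were 6 wholly lower (background 35.3%) and 3 wholly higher (share over all genes not given here). Log2 fold changes were below 0 for 8 and above 0 for 4, with a median of -1.05 against 0.04 for all genes tested. The 8 fibroblast markers overlapped in their sum (7342 and 8728 CPM against 6242 and 11762; 2 fell and 1 rose). Their part in the values of the 7 genes was not tested. Of the 7 genes, 4 were wholly lower with IL-27 (background 35.3%), and 1, Ccl21a with a log2 fold change of -6.07 (SE 1.34), had an adjusted p under 0.05 (background 16.5%). The fold ran from -11.77 without the first IL-27 tumor, which leaves only the tumor without counts, to -4.27 after correction for GC content and length. That call was lost without either control tumor and after correction for GC content and length, and 3 genes of the 7 had an adjusted p under 0.05 without the first IL-27 tumor.

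The other genes of lymphatic growth were taken from a list of 34 with roles as ligands, receptors, transcription factors or parts of the vessel, and their adjusted p-values are given, although the list was written with earlier results of these tumors known. With cabo at day 14, 3 of the 34 fell and 0 rose (edgeR adjusted p under 0.05), where 0.693% of all genes tested fell and 1.2% rose, and 11 had an unadjusted p under 0.05 (background 18.9%). The 3 that fell were all receptors. Flt4, the VEGFR-3 gene, was at 17.4, 26.7 and 15.9 CPM in the control tumors and 0.800, 0.918 and 1.41 in the cabo tumors, a log2 fold change of -4.26 (SE 0.30, edgeR adjusted p = 0.00256). Tie1, an orphan receptor of endothelium, fell from 23.95 ± 4.95 to 6.81 ± 2.29 CPM (log2 fold change -1.81, SE 0.26), and Kdr, the VEGFR-2 gene, from 26.7 ± 7.86 to 9.05 ± 2.46 CPM (-1.56, SE 0.28; SD, n = 3 each). The coreceptor gene Nrp2 did not pass the test (log2 fold change 0.36, SE 0.09), nor did the ligand genes Vegfc (-0.10, SE 0.14) and Vegfd (0.28, SE 0.19). Among the other genes of ligands and their processing, Angpt2, a ligand of the TIE2 receptor, and Adamts14, a protease, came nearest to the threshold, with log2 fold changes of -1.19 (SE 0.25, edgeR adjusted p = 0.0650) and 0.58 (SE 0.12, edgeR adjusted p = 0.0597). No transcription factor passed; Sox18 came nearest at -1.39 (SE 0.37), followed by Gata2 at 0.21 (SE 0.10) and Nfatc1 at -0.14 (SE 0.09), both known from lymphatic valves. Of the vessel genes, Ackr2, a chemokine scavenger of lymphatic endothelium, differed by -3.17 (SE 0.72) from 2.68 ± 1.12 CPM and missed the threshold. The median log2 fold change of the list was -0.08, against -0.01 for all genes tested, with 19 genes of the list lower and 15 higher. Of the list, 8 genes were wholly lower with cabo (background 13.7%) and 3 wholly higher (share over all genes not given here). The count of 3 became 1 without cabo mouse 21 or cabo mouse 27, 10 with DESeq2 (background 8.05%) and 0 with the muscle covariate.

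With IL-27+cabo at day 14, 1 of the 34 genes fell and 0 rose (background 0.0427% and 0.0213%), and 6 had an unadjusted p under 0.05 (background 6.2%). It was Flt4, at 1.10, 1.66 and 1.97 CPM, with a log2 fold change of -3.63 (SE 0.36, edgeR adjusted p = 0.0406). The count was 4 without IL-27+cabo mouse 20, the library that stands apart, and 0 without IL-27+cabo mouse 22 or 24 or any control mouse. With IL-27 alone, 0 of 34 passed in edgeR and in DESeq2 and 3 had an unadjusted p under 0.05 (background 2.76%), Flt4 being at 13.6, 12.6 and 11.8 CPM (log2 fold change -0.64, SE 0.23).

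**Figure D4:**
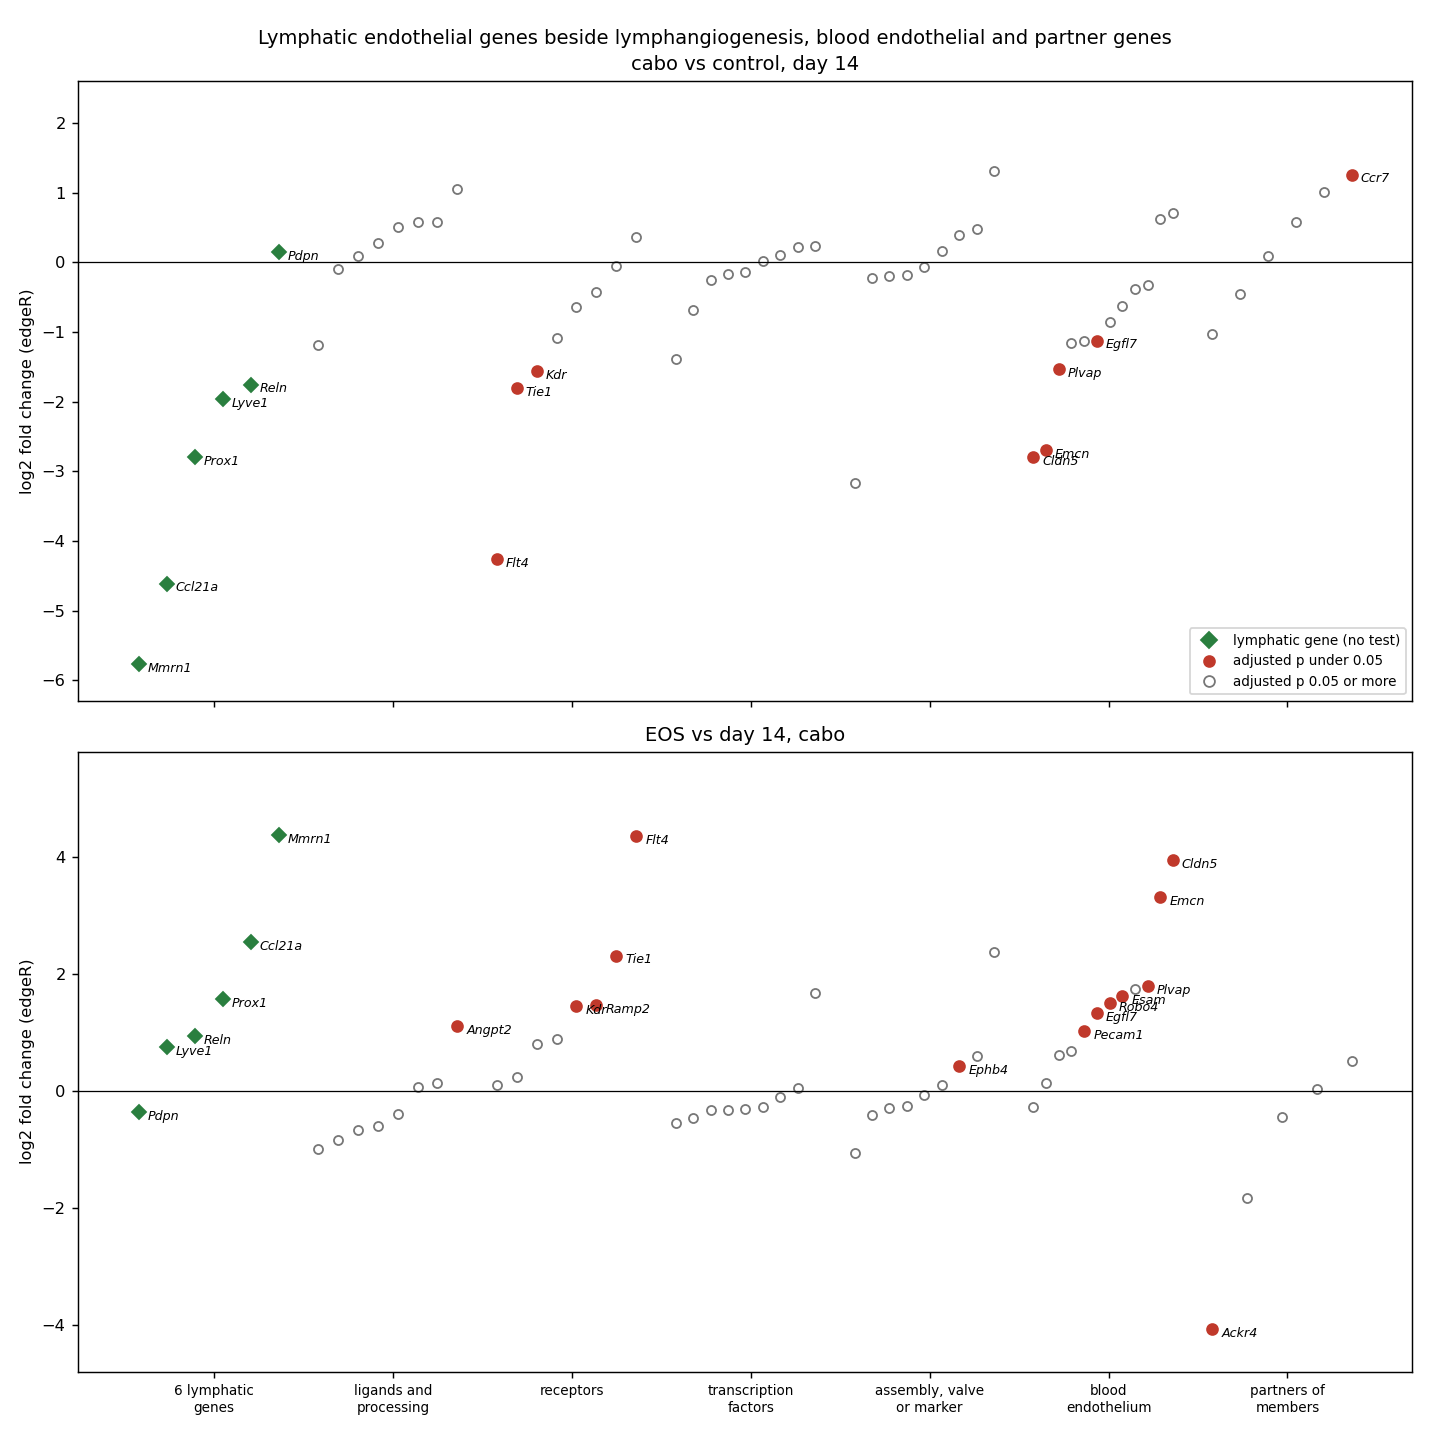
The plot of gene groups gives the log2 fold change of 6 of the lymphatic genes (diamonds), the lymphangiogenesis list by role, blood endothelial genes and partner genes, for cabo against control at day 14 (upper panel) and EOS against day 14 with cabo (lower panel), with red circles at an adjusted p under 0.05. Receptors and blood endothelial genes hold most red circles, and Flt4 lies beside the lymphatic genes in both panels.

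Between day 14 and EOS in the cabo group, 6 of the 34 genes rose and 0 fell (background 0.945% and 1.14%), with 17 at an unadjusted p under 0.05 (background 17.6%). Flt4 stood at 23.04 and 19.3 CPM at EOS, a log2 fold change of 4.35 (SE 0.26, edgeR adjusted p = 0.00181). The other 5 were the receptors Tie1 (2.31, SE 0.25) and Kdr (1.45, SE 0.26), the adrenomedullin coreceptor Ramp2 (1.46, SE 0.22), the ligand gene Angpt2 (1.11, SE 0.12) and the vessel gene Ephb4 (0.42, SE 0.07). The median of the list was -0.01, against 0.01 for all genes. The count of 6 was 2 without D14 cabo mouse 21, 3 without D14 cabo mouse 27 or EOS cabo mouse 19, and 1 without EOS cabo mouse 23. Both EOS cabo values of Flt4 were within the D14 control range, and those of the lymphatic genes Mmrn1 and Ccl21a were below theirs. The EOS control tumors too were below the D14 control range for each of these genes. Control mice 13 and 9 stood at 15.5 and 14.5 CPM for Flt4, 5.84 and 1.29 for Mmrn1, and 9.75 and 1.91 for Ccl21a. Against these control tumors, the log2 fold change with cabo was 0.007 (SE 0.74) for Mmrn1 and -0.51 (SE 0.80) for Ccl21a. In the control, IL-27 and IL-27+cabo groups, 0 of 34 passed between day 14 and EOS in edgeR, with 10, 5 and 9 at an unadjusted p under 0.05 (background 13.1%, 5.05% and 3.83%) and 3, 0 and 4 by DESeq2 (background 4.52%, 0.571% and 1.7%). Between treatments at EOS the counts were again 0, with 0, 9 and 13 at an unadjusted p under 0.05 (background 3.25%, 8.9% and 14.2%) and 0, 2 and 7 by DESeq2 (background 0.115%, 1.35% and 4.68%) for IL-27, cabo and IL-27+cabo. In the SC tumors, 6 of the 33 genes of this list that were tested fell with IL-27 (Piezo1, Adamts14, Gata2, Ephb4, Tie1 and Flt4) and 3 rose (Vegfd, Ccbe1 and Hhex), where 16.5% of all genes fell and 3.52% rose. Flt4 was there at 8.19 and 14.0 CPM with the control plasmid and 2.20 and 4.00 with IL-27, a log2 fold change of -1.84 (SE 0.51, edgeR adjusted p = 0.0466), and Vegfd was at 17.8 and 17.6 against 37.2 and 61.6 CPM. These 9 calls became 5 without the first control tumor and 5 after correction for GC content and length.

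The genes that act with the 7 products were followed as well. Ccr7, the receptor of CCL21, was higher with cabo at day 14, at 4.997, 5.52 and 5.02 CPM against 2.47, 2.36 and 1.68 in the control tumors (log2 fold change 1.26, SE 0.21, edgeR adjusted p = 0.0329). It was the only partner gene of 6 tested to pass there (background 0.693% lower and 1.2% higher), and its ligand Ccl21a was lower in the same tumors. Ccl19, the other ligand of CCR7, had no counts in any D14 control or D14 cabo tumor, and at most 0.232 CPM in any tumor. Ackr4, which scavenges CCL21, fell between day 14 and EOS in the cabo group, from 2.51 ± 1.16 CPM (SD, n = 3) to 0.147 ± 0.0843 CPM (SD, n = 2), a log2 fold change of -4.07 (SE 0.59, edgeR adjusted p = 0.0282). Clec1b, the podoplanin receptor of platelets, stayed between 0 and 0.536 CPM in all tumors. The reelin receptor gene Vldlr was at 62.3 ± 1.94 CPM with cabo and 41.995 ± 13.97 in the D14 control tumors (SD, n = 3 each), and did not pass the test (edgeR adjusted p = 0.233). Lrp8, the other reelin receptor, had a log2 fold change of 0.09 (SE 0.13). In the SC tumors Vldlr rose with IL-27, from 29.3 and 22.4 CPM to 47.2 and 93.8 CPM (log2 fold change 1.45, SE 0.40, edgeR adjusted p = 0.0456).

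Markers of other cell types also differed in the same tumors. Of 12 blood endothelial genes, 4 fell with cabo at day 14 (Cldn5, Emcn, Egfl7 and Plvap, named after their values were seen; background 0.693%) and 7 rose from day 14 to EOS in the cabo group (background 0.945%). With IL-27+cabo at day 14, 0 of 12 passed in edgeR (background 0.0427%), with 6 at an unadjusted p under 0.05 (background 6.2%). The list summed to between 243 and 393 CPM in the D14 control tumors, between 182 and 222 with cabo, and between 381 and 425 in the EOS cabo tumors. Its median log2 fold change with cabo at day 14 was -0.99. The median of the 7 lymphatic genes cannot be compared with it, since they were chosen with this contrast known. Skeletal muscle markers were higher in the tumors with cabozantinib: the 10 markers summed to 4.89, 101 and 21.5 CPM in D14 control mice 3, 5 and 7, to between 838 and 1358 CPM with cabo and to between 1131 and 3437 CPM with IL-27+cabo. Muscle markers were also high in IL-27 mouse 8, at 1395 CPM against 21.3 and 50.6 in IL-27 mice 4 and 6. In that group mouse 8 had the lowest Prox1 (1.49 CPM), Mmrn1 (2.87), Lyve1 (7.15) and Reln (1.38), each above its level in the 3 D14 cabo tumors. Ccl21a and Gm13304 were lowest in mouse 4 instead (6.43 and 1.07 CPM, against 10.8 and 1.25 in mouse 8). Fibroblast markers summed to 5624 to 6532 CPM with IL-27 against 7306 to 8400 in control. Of these, 7 of 8 were lower, 4 wholly (background 4.94%), and 1 higher. Lymph node markers summed to 2.72 to 5.95 against 6.06 to 10.2 CPM. Of 7 tested, 6 were lower, 3 wholly, and 1 higher. By edgeR 0 passed in these lists with IL-27 (background 0%). The 8 megakaryocyte markers, whose cells make Mmrn1, summed to between 23.9 and 24.8 CPM in the D14 control tumors. With cabo they summed to between 39.4 and 45.4 CPM. In each group 1 marker was at 0 (Treml1 and Gp9). Only 4 of the 8 were tested, and all 4 had log2 fold changes above 0, but 1 alone was wholly higher. The edgeR test called 1 higher (background 1.2%) and 0 lower (background 0.693%). Averaged over the markers as log2 CPM, control stood at -1.36 ± 0.461 and cabo at -1.20 ± 0.227 (SD, n = 3 each). Macrophage markers overlapped between these groups (283 to 540 CPM in control, 441 to 544 with cabo), as did the 10 lymph node markers (6.06 to 10.2 CPM in control, 8.72 to 12.3 with cabo). The 8 fibroblast markers summed to more with cabo (10080 to 10927 CPM against 7306 to 8400 in control), while Pdpn overlapped. By edgeR, 1 of the 8 rose (background 1.2%) and 0 fell (background 0.693%). Log2 fold changes were above 0 for 6 of them and below 0 for 2. The part of these cell types in the levels of the 7 genes was not tested, and the fit with the muscle covariate cannot tell muscle content from treatment.

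**Figure D5:**
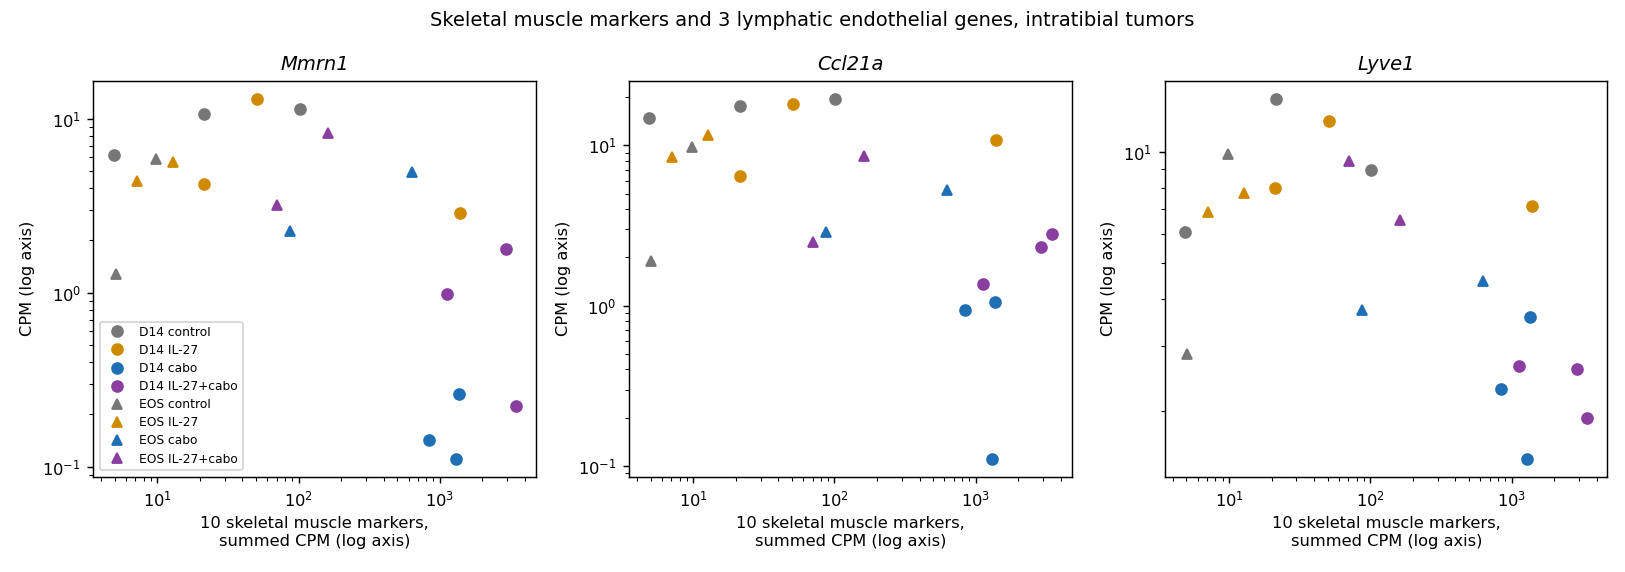
The plot of muscle markers gives the summed CPM of the 10 muscle markers against the CPM of Mmrn1, Ccl21a and Lyve1 in the 20 intratibial tumors, on log axes, with circles for D14 and triangles for EOS. The D14 tumors with cabozantinib lie between 838 and 3437 CPM of muscle markers, and D14 IL-27 mouse 8 lies at 1395 CPM with the lowest Mmrn1 and Lyve1 of its group, while its Ccl21a (10.8 CPM) is above that of mouse 4 (6.43 CPM).

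Over the 20 intratibial tumors, the 6 genes other than Pdpn varied together. Pearson's r of log2 CPM was between 0.71 and 0.95 for their 15 pairs, and between -0.06 and 0.09 for the 6 pairs with Pdpn. These values describe tumors that share treatments and are given without a test. After the mean of each group was removed the ranges overlapped, with r between 0.19 (Reln and Lyve1) and 0.84 (Gm13304 and Reln) for the 15 pairs and between 0.10 (Pdpn and Prox1) and 0.39 (Mmrn1 and Pdpn) for the 6 pairs with Pdpn. Of 21544 genes compared, those most like Mmrn1 were Gm13304 (r = 0.95), Ccl21b (0.95) and Gm10591 (0.94), and those most like Ccl21a were Gm21541 (0.95), Gm10591 (0.93) and Gm13304 (0.93). Ccl21a and its copies can share reads, so pairs and matches that involve them are not separate from each other. Mmrn1 was also the gene most like Prox1 (0.84) and most like Lyve1 (0.88). Reln was nearest to Gm21541 (0.86), Ccl21b (0.84) and Arhgap18 (0.84). Pdpn was nearest to Cdkn1a (0.82), Sgta (0.80) and Rmc1 (0.78), none of them in the lists of lymphatic genes.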

How the data were processed

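Per the authors, stranded poly(A) libraries of 24 tumors were sequenced in pairs, trimmed with cutadapt and mapped with HISAT2; the submitters' processing notes also name FastQC, StringTie and DESeq2. The deposited values are whole-number read counts per Ensembl gene, not normalized. The counting program, annotation and versions are not given in the sources used here. The authors state that mapping was to the Mus musculus genome, while the notes name GRCh38, a human build. Which mouse build was used is thus unclear, and the split of counts over copies of Ccl21a can depend on it. Gene names, lengths and coordinates came, by Ensembl identifier, from GENCODE M21 on GRCm38 and upstream sequence from RefSeq (GRCm38.p6). Between 30.4% and 35.5% of low counts (1 to 20) in each library were multiples of 4, and the cause was not tested. Labels call the samples separate tumors; whether subcutaneous tumors shared a mouse is not stated.

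Fits were made with edgeR 4.0.16 under R 4.3.3 (filterByExpr, TMM, quasi-likelihood F test, Benjamini-Hochberg adjustment over all genes tested, two-sided). CPM uses TMM-scaled library sizes and RPKM the union of a gene's exons. Each fit held its 2 groups alone. Exceptions were the EOS treatments, fitted over the 4 EOS groups, and the difference in change with cabo, fitted over all 20 intratibial tumors. Alternatives were DESeq2 1.42.0, RLE normalization, no filter on low counts, counts divided by 4, leaving out each tumor, one fit of all intratibial tumors, a muscle score as covariate, a replicate block, and removal of the GC content and length trend by splines with 5 degrees of freedom. The pipeline was tested on simulated data. The members, lists and comparisons were chosen with earlier results of these data known. Named genes are the 7 members, fixed ligands, receptors and partners, up to 3 genes per role with the smallest p with cabo at day 14, genes passing the test elsewhere, the 3 genes most like each member, and copies of Ccl21a.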

Additional observations from a re-analysis of the deposited data

Results flagged for a closer look

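The change of Flt4 with cabo differed between EOS and day 14 by 4.74 on the log2 scale (standard error 0.43, edgeR adjusted p = 0.000139 for the difference itself), since it was far below control at day 14 and slightly above it at EOS. At day 14, Flt4 was at 1.04 ± 0.323 CPM with cabo and 19.999 ± 5.89 in the control tumors (SD, n = 3 each), and at EOS at 21.2 ± 2.66 and 14.97 ± 0.720 CPM (SD, n = 2 each). It was the only gene of the lymphangiogenesis list to pass this test in edgeR (4 did in DESeq2), with 9 at an unadjusted p under 0.05. Of all genes tested, 0.0788% passed in edgeR, all with the EOS change the more positive, 0.413% passed in DESeq2 and 4.11% had an unadjusted p under 0.05. The result was tested because earlier results of these data were known.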

How the results depend on the processing

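No fold change of a called gene among the 7 reversed. Counts refer to an adjusted p under 0.05, first in the lymphangiogenesis list (34 genes) and then among the 7 lymphatic genes. Except for DESeq2, the share of all genes called under each other setting is not given here. Whether such a count moved with the calls over all genes is therefore left unread. With DESeq2, the list count was 10 rather than 3 for cabo at day 14, 5 rather than 1 for IL-27+cabo at day 14, 16 rather than 9 for SC IL-27, 14 rather than 6 for EOS against day 14 with cabo, and 4 rather than 1 for the difference in change with cabo. It was 3 and 4 rather than 0 for EOS against day 14 in the control and IL-27+cabo groups, and 2 and 7 rather than 0 for cabo and IL-27+cabo at EOS. Among the 7 genes DESeq2 gave 6 rather than 0 for IL-27+cabo at day 14, 2 rather than 1 for SC IL-27, 3 rather than 1 for EOS against day 14 with cabo, 1 rather than 0 in the control and in the IL-27+cabo group, and 3 rather than 1 for the difference in change. In these 6 comparisons DESeq2 called 2.58%, 31.9%, 9.08%, 4.52%, 1.7% and 0.413% of all genes, and with cabo at day 14 8.05%. With no filter, cabo at day 14 gave 1 and 2, and EOS against day 14 with cabo gave 3 in the list. With counts divided by 4, the list count for cabo at day 14 was 6. With all intratibial tumors in one fit, cabo at day 14 gave 3 of the 7 genes, IL-27+cabo at day 14 gave 4 and 1, and EOS against day 14 gave 2 and 2 with cabo and 4 in the list with IL-27+cabo. With the muscle covariate, cabo at day 14 gave 0 and 0, and IL-27+cabo 0 in the list. The log2 fold changes of Prox1, Mmrn1, Reln and Ccl21a with cabo were larger in size there, as were their standard errors. Muscle markers were high in the tumors with cabozantinib, so this fit cannot tell muscle content from treatment.

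Leaving out each tumor gave list counts from 1 to 4 for cabo at day 14, 0 to 4 for IL-27+cabo at day 14, 5 to 9 for SC IL-27 and 1 to 5 for EOS against day 14 with cabo. Among the 7 genes it gave 2 to 6, 0 to 3, 0 to 3 and 0 to 1, and 0 to 1 for the difference in change. The SC tumors share replicate numbers only. Across 19360 genes, the differences between tumor 1 and tumor 2 in the control and IL-27 groups had r = 0.03. The replicate block gave 13 list genes and 1 of the 7, and with the GC content and length trend removed 5 and 0, the values without the block being 5 and 0. The cause of these differences was not tested, except that leaving out a tumor or adding a covariate lowers the degrees of freedom. With 2 or 3 tumors per group and with Prox1 and Mmrn1 at 8 to 44 counts in the D14 cabo tumors, depth limits how exactly the low levels are known.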
